A study of Mus musculus with 3 samples.

Results

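Immediate-early genes are a small group whose transcription starts within minutes of a signal, without waiting for new protein. Here the group is the 9 genes Fos, Fosb, Jun, Junb, Jund, Egr1, Dusp1, Ier2 and Zfp36, chosen by name and all present among the 14133 genes of the deposited table. The study measured RNA in single primordial germ cells, the precursors of eggs, that carried the Oct4-EGFP reporter (green fluorescence driven by Oct4 regulatory sequence, which is active in germ cells). The cells were flow-sorted from fetal ovaries of C57BL/6 mice at embryonic days E12.5, E14.5 and E16.5, with 1 library per stage. How many embryos were behind each library is not stated in the labels. With 1 library per stage there is no replicate check, no test was possible between stages, and a stage's effect and its library's cannot be told apart. Intervals below are exact Poisson or binomial 95% intervals and cover counting error only.

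Fos and Fosb pair with Jun, Junb or Jund to form the transcription factor AP-1, which is switched on by growth-factor and stress kinases. Egr1 is a zinc-finger transcription factor made in the same response. Dusp1 is a phosphatase that switches off MAP kinases, Zfp36 (tristetraprolin) destroys messenger RNAs with AU-rich ends, and Ier2 is a small nuclear protein of the same early wave. The same genes are known to respond when tissue is dissociated and sorted. Between the youngest and oldest of these stages, female germ cells leave mitotic proliferation and enter meiosis.

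The promoters of several of these genes carry short signal-responsive motifs. Shown are 4 promoters that held such a motif. They are RefSeq sequences of build GRCm38.p6, running from 250 bases before to 50 bases after the transcription start. Capitals in Fos (chr12:85473640-85473939, plus strand), Junb (chr8:84978699-84978998, minus strand) and Dusp1 (chr17:26508423-26508722, minus strand) mark TGACG, the core of the cAMP response element, on either strand. Capitals in Zfp36 (chr7:28379179-28379478, minus strand) mark a CArG box, the motif bound by serum response factor.
Fos: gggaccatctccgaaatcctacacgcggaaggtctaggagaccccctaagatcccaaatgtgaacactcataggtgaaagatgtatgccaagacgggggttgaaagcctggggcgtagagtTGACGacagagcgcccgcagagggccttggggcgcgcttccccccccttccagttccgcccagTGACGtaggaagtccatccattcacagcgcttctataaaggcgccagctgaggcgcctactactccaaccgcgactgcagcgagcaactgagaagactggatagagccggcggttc
Junb: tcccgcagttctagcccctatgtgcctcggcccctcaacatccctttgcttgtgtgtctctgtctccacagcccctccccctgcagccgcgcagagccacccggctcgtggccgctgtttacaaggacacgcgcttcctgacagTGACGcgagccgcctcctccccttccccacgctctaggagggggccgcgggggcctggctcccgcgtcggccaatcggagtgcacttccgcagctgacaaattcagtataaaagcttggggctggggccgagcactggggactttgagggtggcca
Dusp1: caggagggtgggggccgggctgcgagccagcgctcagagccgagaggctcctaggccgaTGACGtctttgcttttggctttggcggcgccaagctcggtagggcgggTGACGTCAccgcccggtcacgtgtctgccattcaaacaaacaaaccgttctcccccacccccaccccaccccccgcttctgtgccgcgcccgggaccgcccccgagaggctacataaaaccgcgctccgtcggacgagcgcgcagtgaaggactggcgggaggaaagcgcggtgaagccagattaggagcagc
Zfp36: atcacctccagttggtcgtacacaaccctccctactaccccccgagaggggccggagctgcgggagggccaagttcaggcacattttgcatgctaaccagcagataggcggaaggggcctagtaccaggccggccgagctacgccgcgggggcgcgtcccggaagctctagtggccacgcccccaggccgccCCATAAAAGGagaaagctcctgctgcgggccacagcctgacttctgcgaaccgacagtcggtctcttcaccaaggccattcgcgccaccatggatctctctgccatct
RefSeq promoters of 7 of the 9 genes were searched. The window of Jund, counted among the 7, lies upstream of the start that GENCODE gives for this gene, and it held none of the motifs named here. The window of Jun held none of them either. TGACG on either strand occurred in 4 of these 7 (Fos, Fosb, Junb and Dusp1), against 20.8% of 32851 promoters of this length. The CArG box occurred in 1 of the 7, against 1.63% of all promoters, and the AP-1 site TGACTCA in 0 of the 7, against 5.20%. These matches describe letters in the windows and say nothing of binding. Their part in the stage ratios was not tested. Bases farther from the start and the promoters of the remaining members were not searched, so a motif there would be missed.

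The messages of this group are also known for short lives, which AU-rich elements in the 3′ untranslated region help to set. The ATTTA pentamer, the unit of such elements, was counted in the 3′ untranslated region of 1 annotated transcript per gene. Fos had 4 pentamers in 815 bases and Dusp1 had 4 in 690 bases, while Ier2 had 0. Of 12115 genes with such a region of at least 100 bases, 68.2% had a pentamer, and the median density was 1.30 per kilobase. The densities of Fos and Dusp1 exceeded those of 92.9% and 95.3% of these genes. The 30 bases with the most pentamers, in capitals, show how close they lie in 4 members, those with 2 pentamers in 30 bases. The share of all genes with such a stretch was not counted.
Fos: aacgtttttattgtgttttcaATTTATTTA
Jun: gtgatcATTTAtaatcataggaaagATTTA
Dusp1: ggctcatgggagctggtccttATTTATTTA
Zfp36: tgggccctttATTTAtgacgactttATTTA

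The table held 4706 cells at E12.5, 9075 at E14.5 and 5363 at E16.5. The median per cell was 26692, 10960 and 12659 UMIs in that order (a UMI, unique molecular identifier, marks 1 captured RNA molecule). Cells were clustered without the genes of the lists described here. Clusters holding germ cell markers made up 4679, 8903 and 5311 cells, called germ-cell-like. A single other cluster of 24, 166 and 23 cells expressed 15 of 17 markers of pregranulosa cells, the somatic cells around the germ cells, and is called pregranulosa-like. It also held germ cell markers, whose summed level there was 28.3%, 21.9% and 26.2% of that in germ-cell-like cells, so its cells carried RNA of both types. A doublet caller marked 38 of the 19144 cells, which were left out. This is 0.2% of cells, against 6% expected, so the calls were not relied on. The deposited cells held 1998 to 5489 genes and at most 4.999% mitochondrial UMIs, and whether doublets had been removed is not stated in the labels. Doublets cannot be told from pregranulosa cells with germ cell RNA. Germ cell levels are given as CPM, a gene's summed UMIs divided by all summed UMIs and multiplied by 1000000. Each UMI stands for 1 molecule counted at its 3′ end, so these levels were not divided by gene length. Between 43 and 72 cell barcodes were shared by any pair of libraries. The E12.5 library was labelled female, yet 666 of its germ-cell-like cells held a UMI of a Y-linked gene, against 0 in both later libraries. Leaving these cells out kept the main counts of the 9 genes past 2-fold given below. The median log2 ratios of the 9 became -1.25 for E14.5 over E12.5 and -1.68 for E16.5 over E12.5. Counts in the wider lists and shares of all genes were not redone without these cells.

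In germ-cell-like cells, every one of the 9 genes was lower at E14.5 than at E12.5, and 6 of them had their highest level at E12.5. Jund, Ier2 and Dusp1 supplied 90.6%, 88.4% and 79.7% of the group's UMIs at E12.5, E14.5 and E16.5. The summed level of the 9 genes was 463.9, 141.6 and 110.5 CPM at these stages. The other 6 genes stayed between 0.215 and 20.9 CPM throughout.

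Among the AP-1 subunits, Jund, the Jun protein that many resting cells hold, was the most abundant at every stage. Its level was 227.6 CPM at E12.5 (interval 225.0 to 230.2), 95.6 CPM at E14.5 (93.7 to 97.5) and 71.0 CPM at E16.5 (69.0 to 73.0). It stood at place 680 of all genes at E12.5, 1517 at E14.5 and 2125 at E16.5. Jun, the founding member of its family, had 6.73, 3.07 and 7.22 CPM at the 3 stages and was lowest in the middle one. Junb, which can restrain Jun activity, had 9.62, 3.86 and 2.09 CPM. Fos, the best known inducible partner, had 20.9, 7.03 and 5.64 CPM, and its close relative Fosb 0.455, 0.215 and 0.565 CPM from only 57, 22 and 39 UMIs.

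Outside AP-1, Dusp1 showed the widest range of the group. It had 84.2 CPM at E12.5 (interval 82.6 to 85.9), 10.0 CPM at E14.5 (9.42 to 10.7) and 4.10 CPM at E16.5. Ier2 had 108.6, 19.7 and 12.9 CPM. Egr1 followed another course, with 3.97 CPM at E12.5, 1.405 CPM at E14.5 and 5.44 CPM at E16.5 (4.90 to 6.02). Zfp36 had 1.86, 0.790 and 1.54 CPM.

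At E12.5 the order was Jund, Ier2, Dusp1, Fos, Junb, Jun, Egr1, Zfp36 and Fosb, and the order at E14.5 was the same. No neighbouring intervals overlapped at either stage. At E16.5 the order was Jund, Ier2, Jun, Fos, Egr1, Dusp1, Junb, Zfp36 and Fosb. There the intervals of Fos and Egr1 overlapped, and so did those of Junb and Zfp36.

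**Figure D1:**
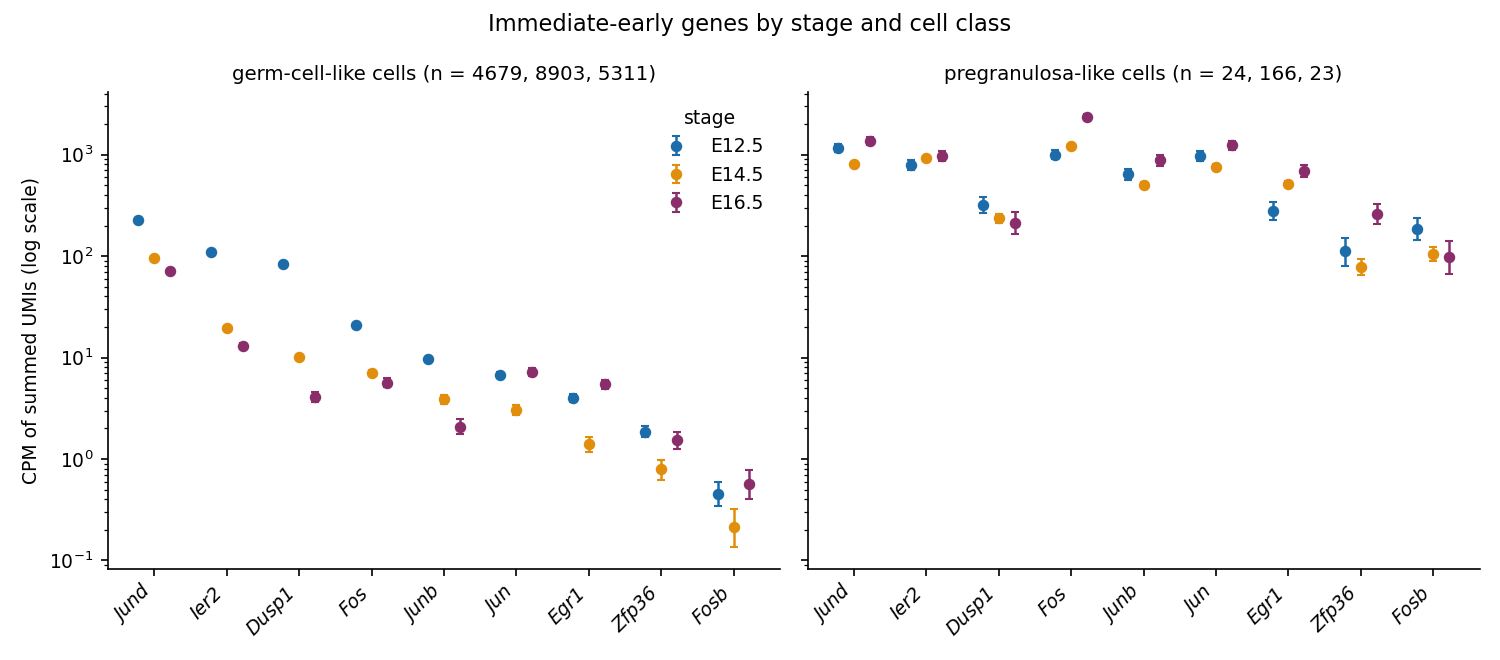
Levels of the 9 genes in CPM on a log axis, in germ-cell-like cells (left) and pregranulosa-like cells (right); points are the summed level of 1 library per stage and bars are exact Poisson 95% intervals. In germ-cell-like cells Jund spans 227.6 to 71.0 CPM and Dusp1 84.2 to 4.10 CPM from E12.5 to E16.5, and each gene's point for pregranulosa-like cells lies higher at the same stage.

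Set against E12.5, all 9 genes were lower by 2-fold or more at E14.5 in germ-cell-like cells, where 16.3% of the 14132 genes with enough counts were that much lower and 31.2% that much higher. Dusp1 was 8.41-fold lower (interval 7.89 to 8.97), Ier2 5.52-fold lower (5.27 to 5.79) and Fos 2.97-fold lower (2.73 to 3.23). Egr1 was 2.83-fold, Junb 2.49-fold, Jund 2.38-fold, Zfp36 2.36-fold and Jun 2.19-fold lower. Fosb was 2.12-fold lower, but its few UMIs left an interval of 1.28 to 3.64. The median log2 ratio was -1.32 for the 9 genes and 0.30 for all genes. Because the median gene was itself shifted, the same ratios under scalings that centre it near 0 were larger, with medians of -1.64 and -1.58 for the 9 genes.

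This result depended on separating the cell classes. When all cells of each library were summed, only 3 of the 9 genes were lower by 2-fold or more at E14.5 than at E12.5, and the median log2 ratio of the 9 was -0.02. Fos, Fosb, Jun and Egr1 were then higher at E14.5 than at E12.5, by 0.10, 0.86, 0.59 and 0.94 on the log2 scale. Pregranulosa-like cells made up 1.83% of the E14.5 cells and 0.51% of the E12.5 cells, and they held 72.8% of the Fos UMIs at E14.5 against 12.3% at E12.5. For Egr1 the shares were 84.8% at E14.5 and 17.0% at E12.5, and for Jund 11.4% and 1.48%.

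Between E16.5 and E14.5 the genes no longer went one way. Dusp1 was 2.44-fold lower at E16.5, and it was the only member at least 2-fold lower, where 17.4% of all genes were. Egr1 was 3.87-fold higher (interval 3.19 to 4.72), Fosb 2.63-fold higher (1.52 to 4.67) and Jun 2.35-fold higher (2.04 to 2.71), where 16.3% of all genes were at least 2-fold higher. Zfp36 was 1.94-fold higher, while Fos, Junb, Jund and Ier2 were between 1.25-fold and 1.85-fold lower. The median log2 ratio was -0.32 for the 9 genes and 0.06 for all genes.

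Across the whole span, E16.5 against E12.5, 5 of the 9 genes were lower by 2-fold or more and 0 were higher by that much, against 22.7% and 37.0% of all genes. Dusp1 was 20.5-fold lower (interval 18.2 to 23.2), Ier2 8.41-fold, Junb 4.61-fold, Fos 3.70-fold and Jund 3.20-fold lower. Egr1 was 1.37-fold higher (1.19 to 1.57), a log2 ratio of 0.45. Under the scalings that centre the median gene near 0 this log2 ratio was 0.08 and 0.09, below its counting interval. For Jun, Fosb and Zfp36 the interval of the ratio included equal levels, and Jun and Fosb took the other sign under both centring scalings. The 3 comparisons share libraries, so they are not independent of each other.

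RNA quality and handling were looked at beside these ratios. The median share of mitochondrial UMIs in germ-cell-like cells was 2.84%, 2.35% and 3.11% at E12.5, E14.5 and E16.5. The heat shock gene Hspa1a, named after its values were seen because it responds to dissociation, had 0.280, 0.0976 and 0.870 CPM, all low levels. Of 15 heat shock genes, 2 were lower and 1 higher by 2-fold or more at E14.5 than at E12.5. At E16.5 against E14.5, 3 were lower and 3 higher. At E16.5 against E12.5, 7 were lower and 3 higher. For all genes the shares lower and higher were 16.3% and 31.2%, then 17.4% and 16.3%, then 22.7% and 37.0%. The sources used here do not give times of dissociation and sorting, and the part of handling in the stage ratios was not tested.

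The pregranulosa-like cells, taken from the same suspensions, held far more of these transcripts. The summed level of the 9 genes in germ-cell-like cells was 463.9, 141.6 and 110.5 CPM, against 5476, 5141 and 8078 CPM in pregranulosa-like cells. Pregranulosa-like cells were thus 11.8-fold higher at E12.5, 36.3-fold at E14.5 and 73.1-fold at E16.5. Every member was lower in germ-cell-like cells at every stage.

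Fos in germ-cell-like cells was 2.08%, 0.572% and 0.239% of its level in pregranulosa-like cells, which was 1001, 1229 and 2356 CPM. Jund reached 19.4%, 11.9% and 5.21%, Dusp1 26.4%, 4.24% and 1.92%, and Ier2 13.6%, 2.14% and 1.33%. The other members, Fosb, Jun, Junb, Egr1 and Zfp36, lay between 0.203% and 1.66%. In pregranulosa-like cells Dusp1 itself had 319.2 CPM at E12.5, 236.0 CPM at E14.5 and 213.9 CPM at E16.5.

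The markers of pregranulosa cells were measured in germ-cell-like cells as a yardstick for RNA from somatic cells. Free RNA, doublets and expression of a marker by germ cells themselves were not told apart. The median level of the markers in germ-cell-like cells was 0.123%, 0.301% and 0.415% of that in pregranulosa-like cells at the 3 stages, with ranges of 0.0154% to 4.001% at E12.5, 0.0938% to 6.01% at E14.5 and 0.131% to 7.45% at E16.5. Their summed level in germ-cell-like cells was 9.96, 19.2 and 14.5 CPM, against 2543, 3607 and 2422 CPM in pregranulosa-like cells, and none of those in the table was at 0. All 9 immediate-early genes stood above the median marker at E12.5, and 7 did at both E14.5 and E16.5. The members at or below it were Fosb and Egr1 at E14.5 and Fos and Junb at E16.5, so their germ cell levels there were no higher than this yardstick. Above the highest marker stood Jund, Dusp1 and Ier2 at E12.5, Jund alone at E14.5, and 0 members at E16.5. That marker was Irx3 at E12.5 and Bmp2 at E14.5 and E16.5. At E16.5 Bmp2 rested on 11 UMIs in pregranulosa-like cells, and its interval of 4.07% to 15.2% included the 5.21% of Jund. The next marker there, Cdkn1b, was at 2.51%, below Jund. Bmp2 had 0.136, 3.29 and 2.70 CPM in germ-cell-like cells at the 3 stages. Leaving out germ-cell-like cells with at least 2 pregranulosa marker UMIs, a choice made after seeing the data, kept the counts of 9, 1 with 3, and 5 genes past 2-fold. The part of somatic RNA in the smaller differences was not tested.

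**Figure D2:**
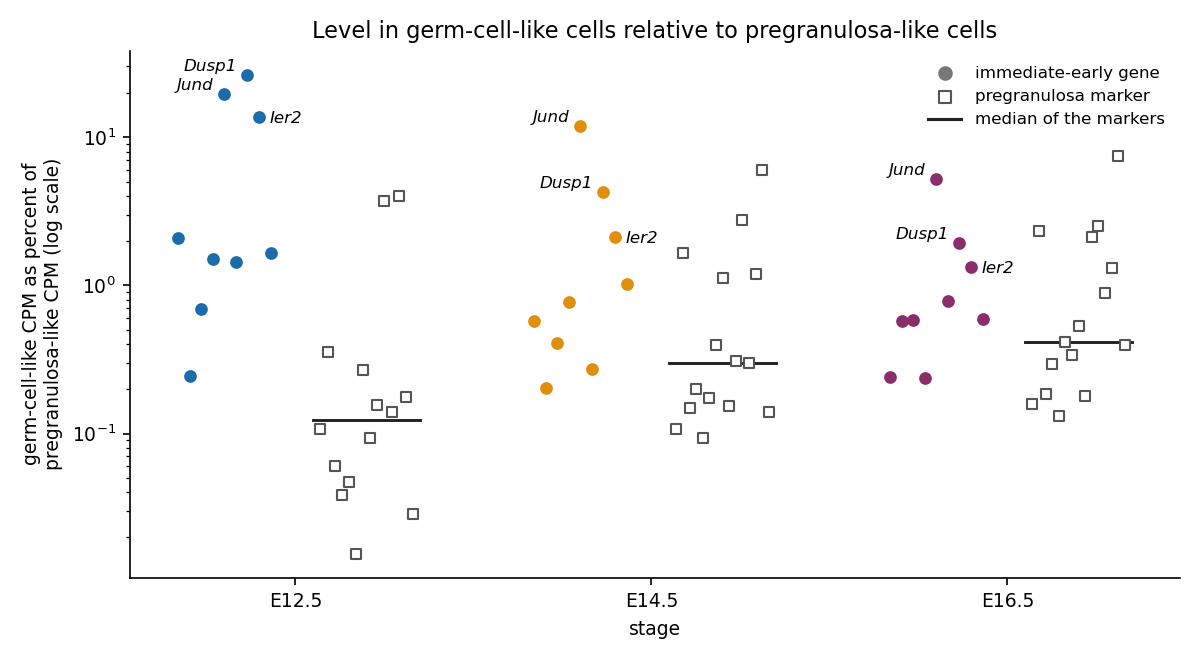
Level in germ-cell-like cells as a percent of the level in pregranulosa-like cells, on a log axis, at each stage; filled points are the immediate-early genes, open squares are pregranulosa markers with at least 10 UMIs in pregranulosa-like cells, and lines are the marker medians. Jund, Dusp1 and Ier2 stand above all markers at E12.5. At E16.5 the highest member is Jund at 5.21%, under the highest marker, Bmp2, at 7.45%. Bmp2 there rests on 11 UMIs in pregranulosa-like cells, with an interval of 4.07% to 15.2%.

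Within E14.5 the levels of several members differed between clusters of germ-cell-like cells. Cluster 2, with Cdh15 and Dlx3 among its leading genes, had 2405 cells; cluster 4, with Rec8, Msx1 and the meiotic entry gene Stra8, had 2814 cells; cluster 5, with Tppp and Fgf11, had 3442 cells. Jund had 178.1, 94.2 and 19.3 CPM in clusters 2, 4 and 5, so cluster 2 was 9.21-fold above cluster 5 (interval 8.49 to 10.0). Dusp1 had 18.6, 9.66 and 2.09 CPM and Ier2 33.9, 19.9 and 5.83 CPM in the same clusters. Cluster 2 was 8.92-fold above cluster 5 for Dusp1, 5.81-fold for Ier2, 3.93-fold for Junb and 2.53-fold for Jun. Fos had its highest level in cluster 4, at 10.6 CPM, against 6.23 CPM in cluster 2 and 4.53 CPM in cluster 5. For Egr1 the interval of the ratio between its highest and lowest cluster included equal levels, and Zfp36 went the other way, at 0.427 CPM in cluster 2 and 1.06 CPM in cluster 5.

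Other measures moved with these clusters. The median depth was 13215, 11497 and 9517.5 UMIs in clusters 2, 4 and 5, and the summed pregranulosa markers were 24.6, 20.5 and 12.8 CPM. The part of either measure in the differences was not tested.

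At E16.5, cluster 8, with Ablim1 and Myom3 among its leading genes and 2910 cells, stood above cluster 7, with Pcdh17 and 2091 cells, in most members. Jund had 88.6 CPM in cluster 8 and 32.8 CPM in cluster 7, a 2.70-fold difference (interval 2.504 to 2.91). Dusp1 was 4.87-fold, Jun 3.28-fold and Ier2 2.36-fold higher in cluster 8. Fos went the other way, at 3.35 CPM in cluster 8 and 6.37 CPM in cluster 7. Depth did not separate these clusters, at a median of 12614 UMIs in cluster 8 and 12601 in cluster 7. Malat1, a nuclear RNA, was 3437 CPM in cluster 8 and 1180 CPM in cluster 7, and the summed pregranulosa markers were 15.6 CPM in cluster 8 and 12.2 CPM in cluster 7. The part of either in the difference was not tested.

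At E12.5 the cluster whose cells mostly held Y-linked UMIs (cluster 1, 629 cells, 91.7% with such a UMI) was set beside cluster 0 (4046 cells). Jund had 226.4 CPM in cluster 1 and 227.8 CPM in cluster 0, and Ier2 had 108.7 CPM in cluster 1 and 108.6 CPM in cluster 0. Fos was lower, at 10.6 CPM in cluster 1 and 22.6 CPM in cluster 0, and Dusp1 was 61.1 CPM in cluster 1 and 88.1 CPM in cluster 0. Jun was higher, at 9.88 CPM in cluster 1 and 6.20 CPM in cluster 0, and Junb at 12.4 CPM in cluster 1 and 9.16 CPM in cluster 0. All clusters at a stage come from 1 library, so the intervals of these differences cover counting error only.

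**Figure D3:**
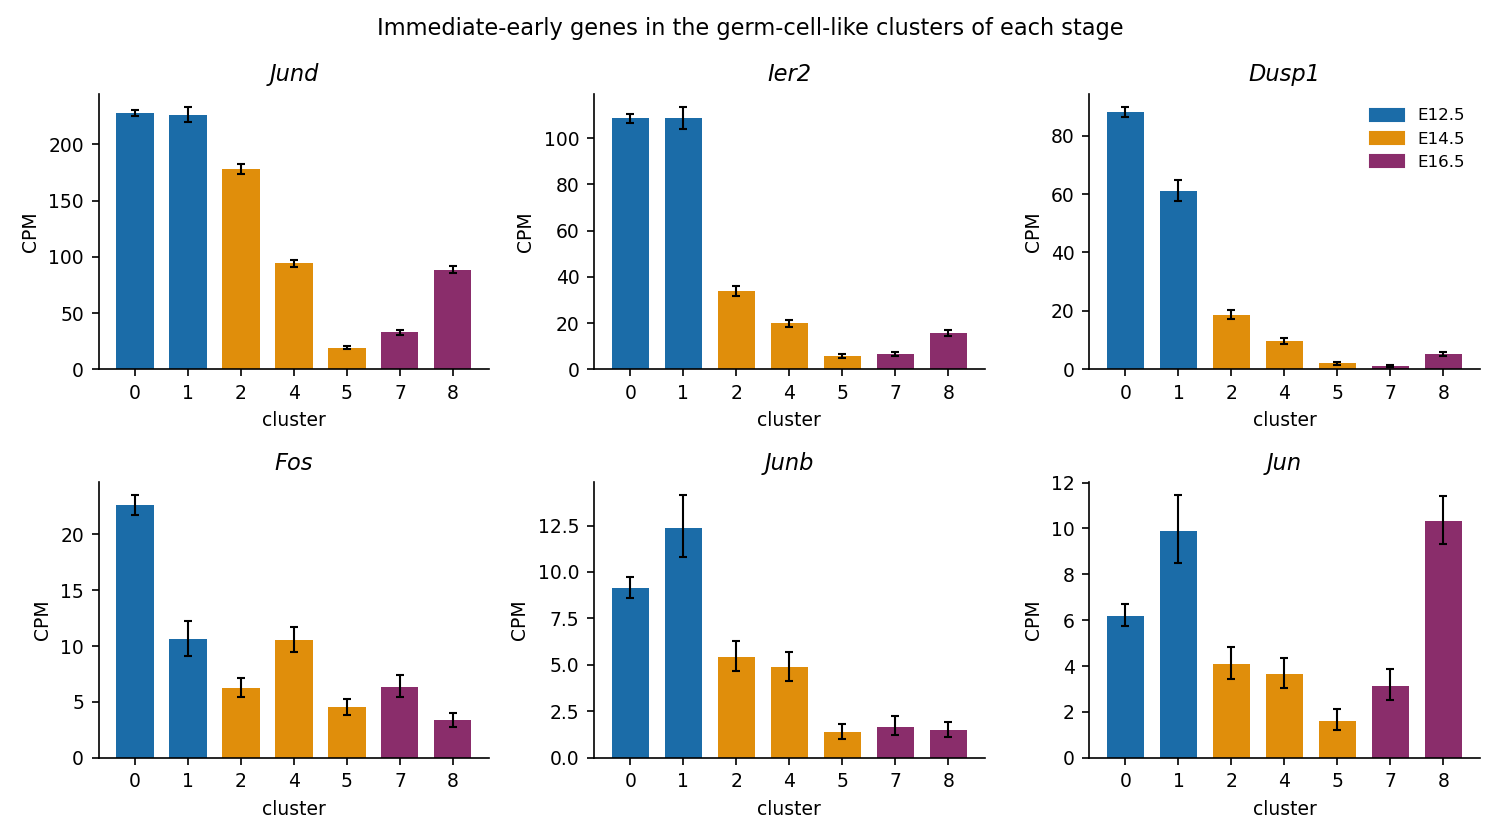
Levels of 6 members in CPM, each panel with its own axis, in the germ-cell-like clusters holding at least 5% of a stage's cells; bars are coloured by stage and error bars are exact Poisson 95% intervals. Jund, Ier2 and Dusp1 step down through clusters 2, 4 and 5 of E14.5 (Jund 178.1, 94.2 and 19.3 CPM) and are higher in cluster 8 than in cluster 7 of E16.5.

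Cells of different depth were compared after thinning each to 5000 UMIs. Jund was then seen in 66.5%, 29.8% and 25.8% of germ-cell-like cells at E12.5, E14.5 and E16.5, and in 98.5%, 49.7% and 48.1% without thinning. Ier2 was seen in 40.3%, 8.16% and 6.03% of thinned cells, Dusp1 in 32.2%, 4.39% and 1.85%, and Fos in 8.51%, 3.24% and 2.31%. Without thinning the shares were 89.4%, 18.2% and 14.4% for Ier2, 80.5%, 10.0% and 4.69% for Dusp1, and 28.6%, 7.13% and 6.10% for Fos. Cells too shallow to thin numbered 0, 11 and 25. A UMI of any of the 9 genes was found in 88.2%, 40.2% and 37.1% of thinned cells. In thinned pregranulosa-like cells Fos was seen in 79.2%, 86.7% and 95.7%, and the sources give no cell class that should lack these genes.

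The spread between cells was measured by the Fano factor, the variance divided by the mean, which is 1 when equal cells are sampled at random. For Fos it was 1.44 at E12.5, 1.09 at E14.5 and 1.05 at E16.5 in thinned germ-cell-like cells. For Jund it was 1.09, 1.38 and 1.35. The factor was highest at E12.5 for Fos, and higher at the later stages than at E12.5 for Jund. In pregranulosa-like cells the factor for Fos was 6.97, 5.96 and 7.39, at means of 5.96, 6.92 and 11.2 UMIs per thinned cell. The Fos means in germ-cell-like cells were 0.107, 0.0340 and 0.0240, and the Jund means were 1.14, 0.424 and 0.341. The factor can grow with the mean, so it does not rank evenness between genes, between stages or between cell classes.

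**Figure D4:**
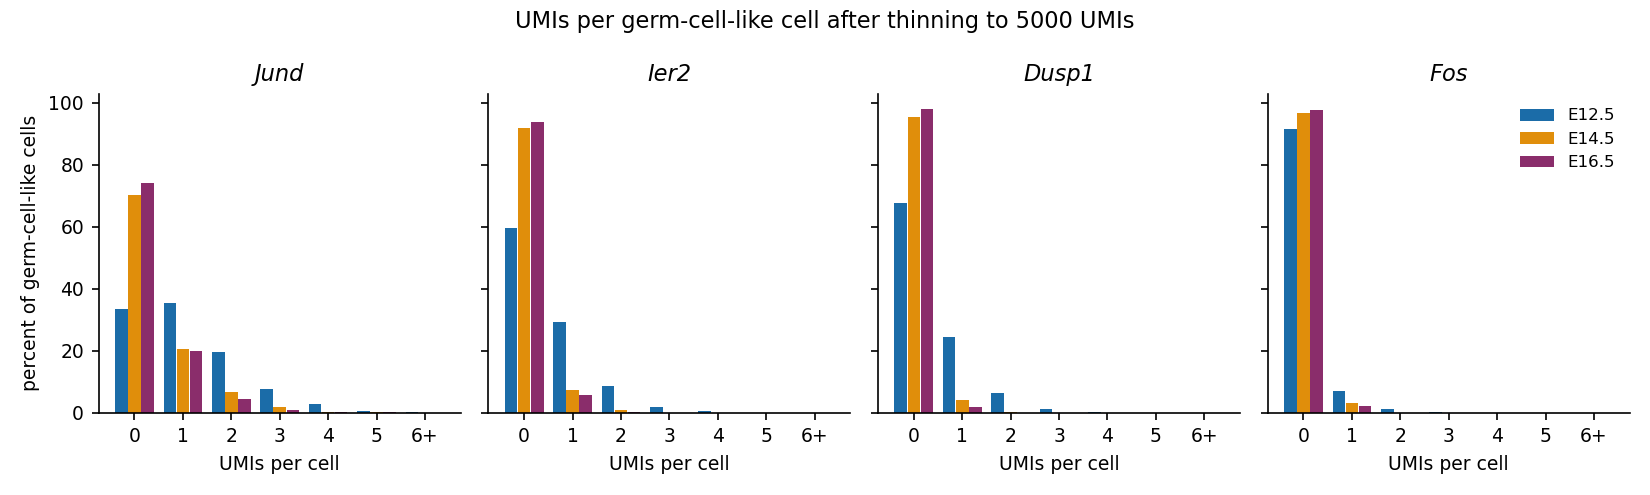
Percent of germ-cell-like cells (vertical axis) by UMIs per cell after thinning to 5000 UMIs (horizontal axis), for 4 members and 3 stages. Jund is absent from 33.5% of thinned cells at E12.5, and Fos from 91.5%, with bars for later stages shifted toward 0 UMIs.

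At E12.5 a small set of cells held much of the Fos. The 89 germ-cell-like cells with at least 5 Fos UMIs, of 4679, held 24.6% of the stage's Fos UMIs, and the highest cell had 19. Grouping by Fos was done after its values were seen, so the groups describe cells and give no test. Egr1 had 15.7 CPM in these 89 cells (interval 11.2 to 21.4), 6.99 CPM in the 1248 cells with 1 to 4 Fos UMIs and 2.46 CPM in the 3342 cells with no Fos UMI. Junb followed the same order, at 27.4, 13.4 and 7.63 CPM, and Fosb at 2.35, 0.757 and 0.283 CPM. Dusp1 had 134.1, 96.6 and 78.0 CPM and Ier2 151.7, 119.7 and 103.0 CPM. Jund differed less, at 262.6, 241.5 and 221.2 CPM. Zfp36 had 4.31, 1.78 and 1.82 CPM, with only 11 UMIs in the 89 cells (interval 2.15 to 7.72). For Jun, at 8.23, 8.06 and 6.16 CPM, the interval in the 89 cells (5.10 to 12.6) included the level in cells with no Fos UMI.

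Pregranulosa markers in these groups were 10.6, 10.8 and 9.63 CPM, with median depths of 28593, 27316 and 26441 UMIs. Other immediate-early genes measured in these groups were Btg2, Klf6, Klf2 and Ier3. Btg2 ran in the order of the members, at 21.95, 16.1 and 9.99 CPM (interval in the 89 cells 16.6 to 28.5). So did Klf6, at 29.8, 22.8 and 16.7 CPM (23.5 to 37.3), and Klf2, at 260.3, 221.6 and 209.8 CPM. Ier3 went the other way, at 7.06, 8.15 and 9.63 CPM. Among targets of MAP kinase signalling, Dusp6, a phosphatase, had 24.3, 26.95 and 26.3 CPM, and Etv5, a transcription factor, had 61.9, 82.4 and 89.3 CPM. Spry4, a feedback inhibitor, ran in the order of the members, at 7.45, 6.90 and 5.78 CPM, but its interval in the 89 cells (4.48 to 11.6) included the level in cells with no Fos UMI. None of the 89 cells lay in cluster 1, which held 15.1% of the cells with no Fos UMI.

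Correlations across cells of 1 library were weak among the members. Over 36 pairs the median Pearson r was 0.0742 in 4679 cells at E12.5, 0.0161 in 8903 cells at E14.5 and 0.0224 in 5311 cells at E16.5. The highest pair was Fos with Egr1 at E12.5 (0.201), Jund with Ier2 at E14.5 (0.209) and Jund with Dusp1 at E16.5 (0.122). Ranked by r with the summed level of the 9, the genes most like the group at E14.5 were Dppa3 (0.591), Phlda2 (0.556), Marcksl1 (0.521) and Tuba1b (0.521), and the group's r with log depth was 0.352. At E12.5 Id3 (0.283) and H3f3b (0.212) came first, and at E16.5 Actg1 (0.303), Id1 (0.301) and Id3 (0.293). At those stages the r with log depth was -0.0328 and 0.0967. The points share library and depth, so these values are descriptions. At E14.5 Egr1, Zfp36 and Fosb were seen in only 1.49%, 0.899% and 0.236% of cells, and such sparse counts hold r near 0. Jund supplied 49.1%, 67.5% and 64.3% of the group's UMIs at the 3 stages, so the summed level leans on Jund.

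Wider lists of the same biology were described by their counts in germ-cell-like cells. Of 35 other immediate-early genes, 19 were lower and 3 higher by 2-fold or more at E14.5 than at E12.5, with a median log2 ratio of -1.25 against 0.30 for all genes, of which 16.3% were lower and 31.2% higher. Klf2, a transcription factor, had 214.1, 24.3 and 9.64 CPM at E12.5, E14.5 and E16.5, and the kinase Pim1 had 189.9, 51.2 and 16.8 CPM. Plk3, a stress-responsive kinase, had 11.8, 0.624 and 0.464 CPM, while Errfi1, an inhibitor of the EGF receptor, had 17.4, 33.4 and 75.6 CPM. Mcl1, a survival factor, had 54.3, 40.2 and 46.9 CPM. For E16.5 over E14.5 the list had 8 genes lower and 7 higher, with a median of -0.04, where 17.4% of all genes were lower and 16.3% higher.

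Of 16 upstream factors that switch on immediate-early transcription, 1 was lower and 6 were higher by 2-fold or more at E14.5 than at E12.5 (median 0.75). For all genes the shares were 16.3% lower and 31.2% higher, so the count of higher factors was near the background. Crem, a cAMP-responsive factor, had 10.2, 26.1 and 36.8 CPM at the 3 stages, and Stat3 had 4.45, 19.8 and 33.1 CPM. Crebbp and Ep300, coactivators, and Atf1 were within 2-fold in each comparison. Srf, which binds the CArG box, was the lower one, at 20.9, 6.54 and 4.89 CPM; it is named after its values were seen.

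In the MAP kinase list of 28, 9 genes were lower and 2 higher by 2-fold or more at E14.5 than at E12.5 (median -0.27), and 13 lower and 2 higher at E16.5 than at E12.5 (median -0.79). For all genes the shares were 16.3% lower and 31.2% higher at E14.5, and 22.7% lower and 37.0% higher at E16.5. The core kinases Map2k2 and Mapk14 and the GTPase Hras had between 35.6 and 309.7 CPM at every stage. The feedback phosphatase Dusp4 had 29.4, 1.10 and 0.377 CPM, 77.9-fold lower at E16.5 than at E12.5. Named after their values were seen, Dusp6 had 26.5, 1.46 and 0.392 CPM, and Etv5 86.8, 10.9 and 2.67 CPM.

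Of 13 possible AP-1 partners, 4 were lower and 4 higher by 2-fold or more at E14.5 than at E12.5 (median -0.07), where 16.3% of all genes were lower and 31.2% higher. Mafg, Nfe2l1 and Cebpg stayed within 2-fold, Atf4 had 46.0, 17.6 and 38.8 CPM, and Cebpb had 19.5, 2.86 and 1.13 CPM. Of 16 genes of AU-rich mRNA decay, 2 were lower and 2 higher in that comparison (median 0.10), with the same shares for all genes. Hnrnpd, an AU-binding protein, had 220.7, 85.6 and 57.8 CPM, and Zfp36l1, a relative of Zfp36, 10.4, 4.07 and 1.32 CPM, whereas Elavl1, Elavl2 and Cnot1 stayed within 2-fold. Of 15 heat shock genes, 2 were lower and 1 higher in it (median -0.41), and 7 were lower and 3 higher at E16.5 than at E12.5 (median -0.79), where 22.7% of all genes were lower and 37.0% higher. Hsp90aa1 had 5131, 4206 and 4127 CPM, Hspa8 3204, 2405 and 1540 CPM, and Hspb1 30.6, 18.3 and 2.15 CPM.

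**Figure D5:**
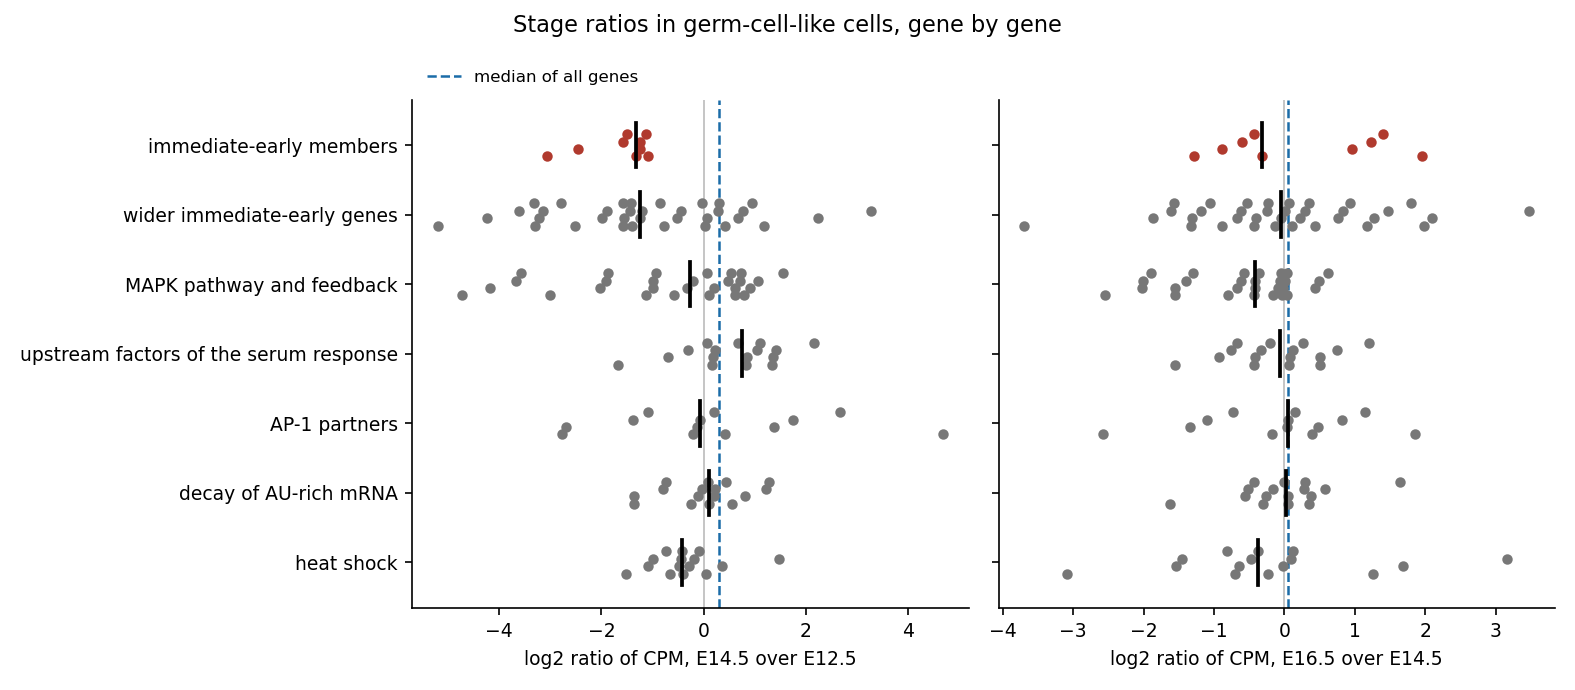
log2 ratios of CPM in germ-cell-like cells for each gene of 7 lists, E14.5 over E12.5 (left) and E16.5 over E14.5 (right); points are genes, black bars are list medians and the dashed line is the median of all genes. All 9 members lie left of 0 in the first comparison (median -1.32, all genes 0.30) and on both sides of it in the second (median -0.32).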

How the data were processed

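Per the labels' protocols, single cells were captured on the 10x Chromium system with version 2 reagents, which count the 3′ ends of transcripts. Cell Ranger 2.0.0, FastQC and build mm10 stand in the submitters' processing notes. The authors deposited 1 table of natural log values, ln(1 + UMIs x 10000 / cell total). Undoing this gave whole UMIs for 100% of 68606039 non-zero values (tolerance 0.01). No cell fell outside 500 genes, 1000 UMIs or 10% mitochondrial UMIs. Cells were clustered with scanpy 1.11.5 (1959 variable genes, 30 components, 15 neighbours, resolution 0.5); doublets were scored (expected 6%) and the 38 cells called were left out. UMIs were summed per stage and class; genes with at least 10 UMIs over the 3 sums entered the ratios, and ratio intervals are exact conditional binomial (scipy 1.17.1). The ratio calculation was checked on simulated counts. Named genes were all members, and per list the 4 of highest mean CPM and the gene of widest ratio with at least 10 CPM (1 such gene is not reported here); per stage, genes ranked by likeness were those in at least 5% of cells. Members and lists were chosen with earlier results of these data known. Gene models were GENCODE on GRCm38. Alternatives covered scaling, thinning, thresholds and cell sets.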

Additional observations from a re-analysis of the deposited data

Results flagged for a closer look

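Fos differed in direction between the cell classes. At E16.5 against E12.5 its log2 ratio was -1.89 in germ-cell-like cells and 1.23 in pregranulosa-like cells, with levels of 5.64 against 20.9 CPM in germ-cell-like cells and 2356 against 1001 CPM in pregranulosa-like cells. The difference was not tested, since each stage had 1 library, and the pregranulosa-like values rest on 23 cells at E16.5 and 24 at E12.5. Fos was not alone in this. Junb, Jund, Ier2 and Zfp36 were also lower in germ-cell-like and higher in pregranulosa-like cells at E16.5, though the pregranulosa-like intervals of Jund and Ier2 overlapped. Fosb ran the opposite way, and Jun, Egr1 and Dusp1 kept 1 direction in both classes. These directions are of point values. In germ-cell-like cells the interval of the ratio included equal levels for Fosb, Jun and Zfp36, and Fosb and Jun took the other sign under both centring scalings. The pregranulosa-like intervals of Dusp1 at the 2 stages overlapped too.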

How the results depend on the processing

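No paired analysis was possible because each stage had 1 library. Of 261 member ratios under 10 alternatives that could move them, 168 stayed within the counting interval, and 148 of 176 past 2-fold stayed past it. Dropping the minimum count could move none. Median-of-ratios and TMM scaling gave median log2 ratios of -1.64 and -1.58 for E14.5 over E12.5 and -2.06 and -2.04 for E16.5 over E12.5. Differences of mean natural logs, a scale that compresses low genes, gave 0 genes past 2-fold and a median of -0.07 for E14.5 over E12.5, 0 lower, 0 higher and -0.02 for E16.5 over E14.5, and 1 lower and -0.09 for E16.5 over E12.5. Summing all cells gave 3 lower and -0.02, then 0 higher and -0.68, then 3 lower and -0.58; it reversed Fos (0.10), Fosb (0.86), Jun (0.59) and Egr1 (0.94) for E14.5 over E12.5, and Fosb (-0.87), Jun (-0.20) and Egr1 (-0.11) for E16.5 over E14.5. Thinning gave medians of -1.51 for E14.5 over E12.5 and -1.74 for E16.5 over E12.5. For E16.5 over E12.5 the median was -1.63 without mitochondrial and ribosomal genes, -1.74 as a mean over cells and -1.73 without cells over 5000 genes. A 1.5-fold threshold gave 3 lower genes for E16.5 over E14.5. Fosb and Zfp36 rest on few UMIs, so depth limits their ratios most.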
